A study of Mus musculus with 14 samples.

Results

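The genes described here are nuclear genes for subunits of the 5 complexes of oxidative phosphorylation. Assembly factors that carry the same stem in their names are included. Members were taken by symbol, namely every gene whose symbol on the array began with Nduf, Uqcr or Atp5, matched Cox4 to Cox8, or was Sdha, Sdhb, Sdhc or Sdhd, with pseudogenes left out. This rule gave 86 of the 19057 named genes, measured by 134 of the 45281 probes, and each gene was read from its probe of highest mean over the 14 arrays. Of the 86 genes, 42 belonged to complex I, 4 to complex II, 7 to complex III, 17 to complex IV and 16 to complex V.

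The respiratory chain sits in the inner membrane of mitochondria. Complex I (NADH dehydrogenase) and complex II (succinate dehydrogenase) pass electrons to ubiquinone, complex III passes them to cytochrome c, complex IV (cytochrome c oxidase) reduces oxygen, and complex V (ATP synthase) makes ATP from the proton gradient that complexes I, III and IV build. Neutrophils are known to draw mainly on glycolysis, whereas macrophages can carry out glycolysis or respiration depending on their state, and several complex IV subunits exist as isoforms tied to a tissue or to low oxygen.

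RNA was measured on bead arrays in GFP+CD11b+ myeloid cells sorted from breast cancer brain metastases (BrM), spleen and bone marrow. The host mice were C57Bl/6J, 14 weeks old, lethally irradiated and reconstituted with haematopoietic stem cells of GFP transgenic donor mice, so that GFP marked progeny of the donor marrow in every group and myeloid cells kept from the host carried no GFP. Tumors grew in the brain for 2 weeks from PyMT or EO771 cells, both mouse breast cancer lines injected intracranially, which models growth in the brain and not spread from the breast. The groups were PyMT BrM with 4 arrays, EO771 BrM with 2, spleen of PyMT tumor-bearing mice with 3, spleen of naïve mice with 2, bone marrow of a PyMT tumor-bearing mouse with 1 and bone marrow of naïve mice with 2. Naïve mice stood in for EO771 controls, so the tumor line, the tumor status of the control mouse and the set of mice cannot be told apart in any comparison across those sets. The labels do not give extraction or array batches, and codes shared by some titles are not explained there, so which arrays share a mouse is unknown and p-values measure the spread between these arrays.

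The deposited values are log2 signals after background correction and quantile normalization, which makes a level relative to the rest of the same array. The signal of a probe also depends on its sequence, so levels were compared between arrays and never between genes. The median of all probe means was 3.99, and 79 of the 86 members lay above it, 53 of them above 9. The sorting gene Itgam (CD11b) was present on every array at 5.74 to 8.87 and did not pass the test between BrM and the other arrays (difference 0.33, adjusted p = 0.776).

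Cell composition differed strongly between the tissues, and each result below stands beside it. In BrM the mean of the neutrophil markers was 6.40 to 8.64 against 10.90 to 12.51 in spleen and bone marrow, with 17 of 19 markers lower in BrM and 0 higher, and the mean of the macrophage markers was 11.28 to 11.65 against 8.06 to 9.87, with 9 of 13 higher and 0 lower. In such sorted pools fewer cells of a type and less RNA per cell cannot be told apart. PyMT spleen 2 stood apart from the other spleens, with a B cell marker mean of 5.68 against 8.15 to 8.62 and a platelet marker mean of 6.94 against 4.09 to 4.90, and it correlated more closely with PyMT bone marrow over all probes (r = 0.949) than with the other PyMT spleens (r = 0.904 and 0.907). Naïve bone marrow 1 and 2 carry codes with one stem and differed by an SD of 0.109 over probes with a mean above 9, against 0.304 to 0.981 for other pairs within a group, so results were also computed with their mean as 1 array. Counts without PyMT spleen 2 or with the naïve bone marrow arrays averaged are given where they moved a result.

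Most respiratory chain genes differed little between BrM and the pooled controls, and 5 members were higher in BrM. These were Cox7a1 and Cox6a2, isoforms of complex IV subunits best known from heart and skeletal muscle, Sdhb, the iron-sulfur subunit of complex II, and the complex I accessory subunits Ndufc2 and Ndufa12. The question was which genes the myeloid cells of BrM express at another level than myeloid cells of lymphoid organs, and it was tested with limma over all probes, 6 BrM arrays against 8 others, at adjusted p < 0.01. The members called were 5 higher and 0 lower, against a background of 3.8% of all probes higher and 3.12% lower. At unadjusted p < 0.05 the counts were 20 higher and 3 lower. The share of members higher at that level was near that of all probes of like signal. It was 23.1% against 19.7% between the median probe and 9, and 26.4% against 24.8% above 9. The share of all probes lower at that level was not computed. Over the 86 members the median difference was 0.16, with 64 positive and 22 negative, against a median of -0.01 over all probes. When each array was centred on a list of reference genes, whose mean was 10.72 to 11.01 in BrM and 10.48 to 10.80 in the other arrays, the median of the members fell to -0.03 and that of all probes to -0.20, so the direction of the members' median depends on the scaling, which moves members and all probes by the same amount. Cox7a1 and Cox6a2 stayed called under that centring, Sdhb, Ndufc2 and Ndufa12 did not, and Cox6b2 was then called lower. Of the 12 reference genes measured, Gusb was itself called higher in BrM (1.65, adjusted p = 8.5e-05) and Tfrc lower (-1.80, adjusted p = 0.0035). The centring therefore does not rest on genes that were all level between the groups. With the set of mice as a block 7 members were higher and 0 lower, the 5 above with the assembly factor Ndufaf2 (0.99, adjusted p = 0.0022) and the accessory subunit Ndufc1 (0.68, adjusted p = 0.0060).

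Cox7a1 showed the largest difference of the 86 members. Its log2 signal was 7.29, 6.93, 7.13 and 6.80 in PyMT BrM and 6.58 and 6.54 in EO771 BrM. It was 4.27, 5.11 and 4.85 in PyMT spleen, 3.80 and 3.96 in naïve spleen, 5.47 in PyMT bone marrow and 4.33 and 4.66 in naïve bone marrow. Every BrM array lay above every control array, and the highest control, PyMT bone marrow, stayed below the lowest BrM. The difference was 2.32 (SE 0.25), a 5.0-fold higher signal (limma adjusted p = 1.5e-05). It held within the PyMT mice alone (2.11, adjusted p = 0.0022) and within the EO771 and naïve mice alone (2.37, adjusted p = 0.0066), and the adjusted p stayed at or below 7.6e-05 whichever array was left out.

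Cox6a2 was measured in PyMT BrM at 6.22, 6.76, 7.16 and 5.68 and in EO771 BrM at 5.57 and 6.12. The controls were 3.95, 3.61 and 3.63 in PyMT spleen, 5.61 and 5.30 in naïve spleen, 4.42 in PyMT bone marrow and 4.58 and 4.79 in naïve bone marrow. Here the groups overlapped, since 1 naïve spleen array lay above EO771 BrM 1. The difference was 1.77 (SE 0.34), a 3.40-fold higher signal (limma adjusted p = 0.0024). Among PyMT mice it was 2.55 (adjusted p = 0.0022), and among EO771 and naïve mice it was 0.78 and missed the threshold (adjusted p = 0.309). Of 14 striated muscle markers 0 were higher in BrM and 1 was lower, and their mean was 3.94 to 4.30 in BrM against 4.05 to 4.55 in the controls; of 6 adipose markers 0 passed the test in either direction.

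The other members called were all bright probes with smaller differences. Sdhb was 9.58, 9.68, 9.55 and 9.59 in PyMT BrM and 9.33 and 9.44 in EO771 BrM, against 8.72 to 8.95 over the 8 controls with a median of 8.84. All BrM arrays lay above all controls, with a difference of 0.68 (SE 0.13, 1.61-fold, adjusted p = 0.0024). A second Sdhb probe with a mean of 8.79 differed by 0.58 without passing the threshold (adjusted p = 0.023), a fainter one gave 0.13 (adjusted p = 0.692), and the mean of all 3 gave 0.47 (adjusted p = 0.0129). After centring on the reference genes the difference of the first was 0.49 (adjusted p = 0.023). Ndufc2 was 11.01, 10.999, 11.30 and 10.80 in PyMT BrM and 10.43 and 10.70 in EO771 BrM, against 9.73 to 10.38 in the controls, again without overlap. Its difference was 0.83 (SE 0.17, 1.78-fold, adjusted p = 0.0041), and the call was lost without PyMT BrM 1, 2 or 3 (highest adjusted p = 0.0126). Ndufa12 was 10.32, 10.64, 10.65 and 10.29 in PyMT BrM but 9.43 and 9.66 in EO771 BrM, and PyMT spleen 3 at 9.67 exceeded both EO771 arrays. Its difference was 1.19 (SE 0.26, 2.28-fold, adjusted p = 0.0056), and the call was lost in 8 of the 14 fits that each left out 1 array (highest adjusted p = 0.0174). For Ndufab1, the acyl carrier protein of complex I, the probe of highest mean differed by 0.71 and missed the threshold (adjusted p = 0.0994), while another of its probes passed it (0.94, adjusted p = 0.0038). For Atp5pb, a stalk subunit of complex V, the probe of highest mean gave 0.39 (adjusted p = 0.366), while a fainter one was lower in BrM, at 4.33 to 4.74 against 4.83 to 5.56 without overlap (-0.69, adjusted p = 0.0080).

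**Figure D1:**
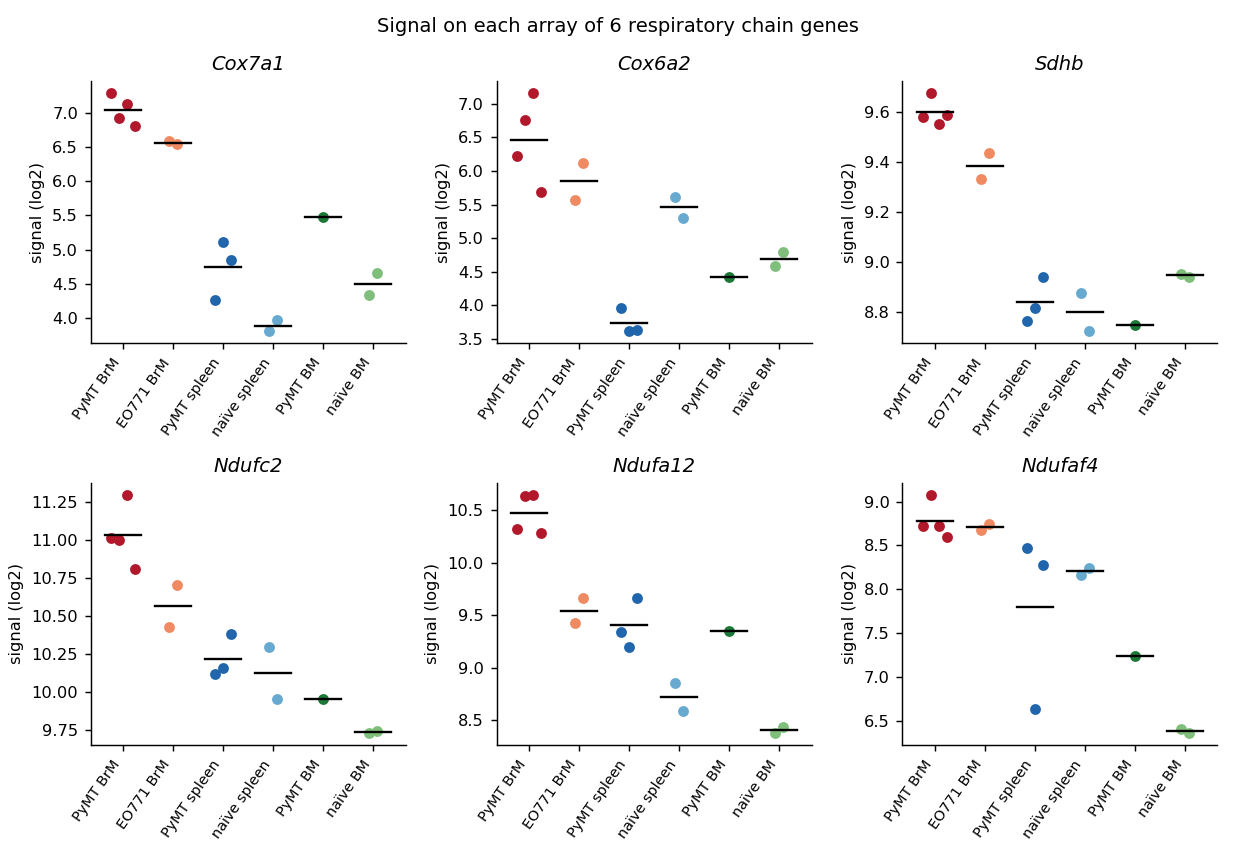
Log2 signal on each of the 14 arrays for Cox7a1, Cox6a2, Sdhb, Ndufc2, Ndufa12 and Ndufaf4, by condition, with each point an array and each black line the mean of its condition. For Cox7a1 the 6 BrM arrays sit between 6.54 and 7.29 and the 8 controls between 3.80 and 5.47, whereas for Cox6a2 1 naïve spleen array at 5.61 lies above EO771 BrM 1 at 5.57.

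Without overlap, every BrM array lay above every control for 4 members, Cox7a1, Ndufaf4, Ndufc2 and Sdhb, against 3.26% of all probes, and below every control for 0 members, against 2.81%. Ndufaf4, an assembly factor of complex I, was 8.72, 9.08, 8.72 and 8.60 in PyMT BrM and 8.68 and 8.75 in EO771 BrM. In the controls it spread from 6.36 in naïve bone marrow to 8.47 in PyMT spleen 1, with PyMT spleen 2 at 6.64. Its pooled difference of 1.28 (SE 0.35) did not pass the threshold (adjusted p = 0.0228). A second Ndufaf4 probe overlapped, at 7.27 to 7.61 in BrM and 5.51 to 8.23 in the controls (0.53, adjusted p = 0.559).

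The promoters of members called in BrM are printed to show the sequence from which these transcripts start, followed by 3 members whose windows hold a word linked to mitochondrial genes. Each is the 150 bases before the annotated start in RefSeq on GRCm38.p6, read 5′ to 3′ on the strand of the gene, and capitals mark a word on either strand. The windows are Cox7a1 at chr7:30184021-30184170 (plus strand), Sdhb at chr4:140961121-140961270 (plus), Ndufc2 at chr7:97399853-97400002 (plus), Ndufa12 at chr10:94198885-94199034 (plus), Ndufaf4 at chr4:24897933-24898082 (plus), Ndufb7 at chr8:83566608-83566757 (plus) and Sdhd at chr9:50603850-50603999 (minus). No promoter is shown for Cox6a2.
Cox7a1: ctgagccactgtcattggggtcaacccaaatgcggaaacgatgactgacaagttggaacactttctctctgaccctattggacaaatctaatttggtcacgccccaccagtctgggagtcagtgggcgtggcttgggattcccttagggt
Sdhb: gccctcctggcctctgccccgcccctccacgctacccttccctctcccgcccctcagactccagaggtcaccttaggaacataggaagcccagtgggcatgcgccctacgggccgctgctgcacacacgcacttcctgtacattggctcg
Ndufc2: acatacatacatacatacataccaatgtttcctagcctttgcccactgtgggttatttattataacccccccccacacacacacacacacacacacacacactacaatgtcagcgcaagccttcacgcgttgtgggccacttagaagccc
Ndufa12: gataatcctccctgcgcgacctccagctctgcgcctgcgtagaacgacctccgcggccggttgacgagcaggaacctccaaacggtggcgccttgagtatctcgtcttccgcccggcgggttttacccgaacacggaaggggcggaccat
Ndufaf4: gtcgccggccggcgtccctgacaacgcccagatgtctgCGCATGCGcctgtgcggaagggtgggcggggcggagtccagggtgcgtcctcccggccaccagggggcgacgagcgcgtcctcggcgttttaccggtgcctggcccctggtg
Ndufb7: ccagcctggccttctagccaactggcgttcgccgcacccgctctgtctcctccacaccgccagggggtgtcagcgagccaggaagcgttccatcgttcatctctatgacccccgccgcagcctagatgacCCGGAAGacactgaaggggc
Sdhd: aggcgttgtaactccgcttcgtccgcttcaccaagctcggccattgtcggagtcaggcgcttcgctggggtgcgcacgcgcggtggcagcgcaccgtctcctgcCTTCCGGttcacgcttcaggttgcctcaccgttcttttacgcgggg

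As a description of these windows, promoters of respiratory chain genes held words of known mitochondrial gene regulators more often than promoters at large. Windows of 250 bases before to 50 after the start were read for 72 of the 86 members and for 27025 genes in all, on both strands. CGCATGCG, the core word of nuclear respiratory factor, stood in 11 of 72 members (15.3%) against 2.07% of all genes, and in the window of Ndufaf4. CCGGAAG, the core of the ETS family, stood in 18 (25%) against 9.93%, and in the windows of Ndufb7, Sdhd and, past the start, Sdhb. AAGATGGC, the core of YY1, stood in 11 (15.3%) against 3.19%. TCAAGGTCA, the core bound by oestrogen-related receptors, stood in 2 (2.78%) against 0.466%, of which Sdhd is one. At least 1 of the 4 words stood in 34 members (47.2%) against 14.5% of all genes, and no match overlapped one of another word. Cox7a1, Ndufc2 and Ndufa12 held none of the 4 words in their windows.

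Taken by complex, the pooled differences were spread around small medians. The median was 0.14 over complex I (31 of 42 positive), 0.32 over complex II (4 of 4), 0.13 over complex III (5 of 7), 0.08 over complex IV (11 of 17) and 0.22 over complex V (13 of 16). These medians take the deposited scaling, and centring on the reference genes lowers each by the amount it lowers all probes. The members with the most negative values were Cox6b2 at -1.47 and Ndufb7 at -0.70, and neither passed the threshold (adjusted p = 0.029 and 0.0693).

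**Figure D2:**
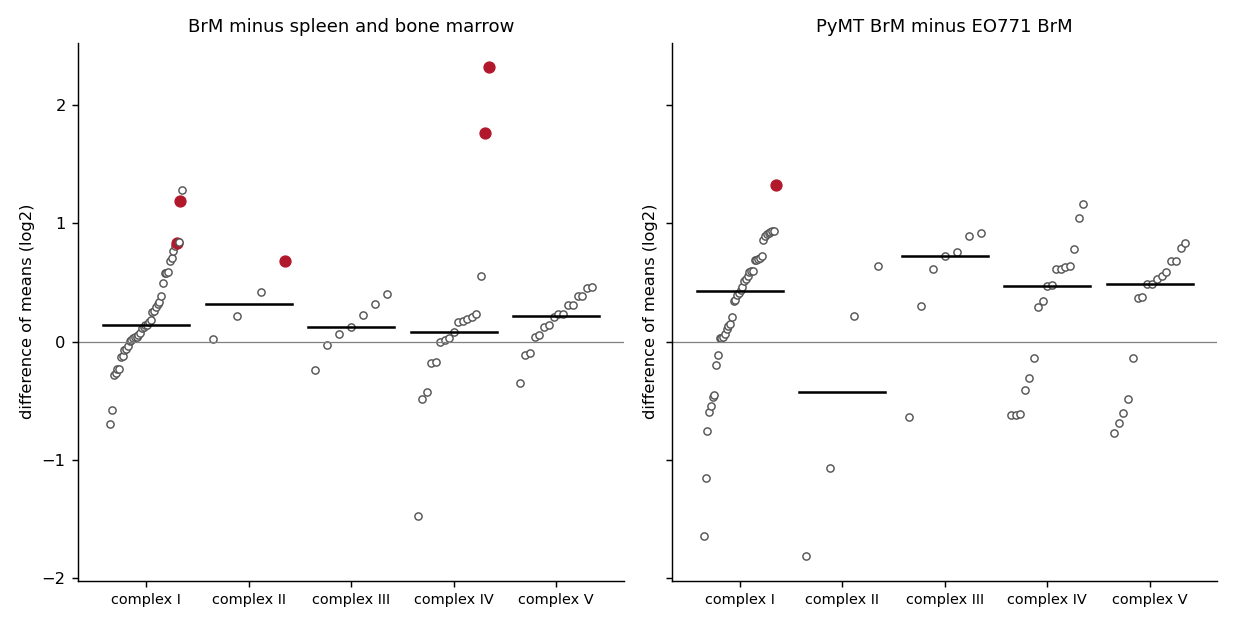
Difference of means on the log2 scale for each of the 86 members, grouped by complex, for BrM minus spleen and bone marrow (left) and PyMT BrM minus EO771 BrM (right). Each circle is a gene, red filled circles have an adjusted p < 0.01 and black lines are medians, which lie between 0.08 and 0.32 on the left and between -0.42 and 0.73 on the right.

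The 6 conditions were next compared without pooling. Over the 6 conditions together a moderated F test called 11 members, against a background of 9.68% of probes. These were Cox7a1, Cox6a2 and Cox7b2 of complex IV, Sdhd of complex II, and Ndufa12, Ndufaf2, Ndufb2, Ndufb9, Ndufb10, Ndufc1 and Ndufv3 of complex I, while the count was 21 without PyMT spleen 2 and 6 with the naïve bone marrow arrays averaged. The range between the highest and lowest condition mean had a median of 0.92 over members and 1.10 over all probes. PyMT BrM was the highest condition for 43 members, EO771 BrM the lowest for 21 and naïve bone marrow the lowest for 24.

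BrM of both lines against spleen gave 4 members higher and 0 lower, with backgrounds of 3.67% and 3.08%. They were Cox7a1 (2.49, adjusted p = 1.1e-05), Cox6a2 (1.56, adjusted p = 0.0021), Ndufa12 (0.95, adjusted p = 0.0028) and Sdhb (0.67, adjusted p = 0.0075, lost in 11 fits that left out 1 array). Without PyMT spleen 2 there were 6 higher and 0 lower.

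BrM against bone marrow gave 6 members higher and 1 lower, with backgrounds of 4.19% and 3.6%. Cox7a1 (1.82, adjusted p = 0.00032), Cox6a2 (1.60, adjusted p = 0.0048), Ndufa12 (1.13, adjusted p = 0.0026) and Ndufc2 (0.95, adjusted p = 0.0062) were again higher. The assembly factors Ndufaf4 (1.94, adjusted p = 0.0033) and Ndufaf5 (1.00, adjusted p = 0.0078) joined them. Ndufb7, a complex I accessory subunit, was 7.56 to 8.02 in the 6 BrM arrays and 9.08, 8.75 and 8.91 in bone marrow, without overlap, and was lower in BrM by 1.20 (SE 0.22, adjusted p = 0.0028); in spleen it spread from 7.58 to 8.96, the highest being PyMT spleen 2. With the naïve bone marrow arrays counted as 1, only 1 member stayed called in this comparison and 0 were lower. Spleen against bone marrow gave 0 members in either direction, with backgrounds of 0.00442% and 0%. At unadjusted p < 0.05 there were 7 higher and 8 lower. The share higher was 11.5% of members between the median probe and 9 against 11.3% of such probes, and 3.77% against 16.4% above 9. Without PyMT spleen 2 there were 2 members called in each direction. The backgrounds above do not belong to that fit, for which none was computed.

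Cox6b2 varied between tissues in another way than Cox7a1 and Cox6a2. Cox6b2, known as the testis form of a subunit whose common form is Cox6b1, was 4.92, 5.02, 4.53 and 4.92 in PyMT BrM and 4.37 and 4.74 in EO771 BrM. It was 4.33, 6.83 and 7.49 in PyMT spleen, 5.22 and 5.31 in naïve spleen and 6.95, 6.84 and 6.81 in bone marrow, so that the BrM arrays and PyMT spleen 1 lay at or below 5.02 and the remaining controls at or above 5.22. Erythroid markers ran alongside, with a mean of 4.14 to 4.76 in BrM, 4.54, 6.96 and 8.13 in PyMT spleen 1, 2 and 3, 5.58 to 5.89 in naïve spleen and 7.42 to 7.91 in bone marrow, and 3 of 9 erythroid markers lower in BrM and 0 higher; their part in the Cox6b2 values was not tested. The pooled difference passed the threshold when PyMT spleen 1 was left out (-1.74, adjusted p = 0.0031) or when arrays were centred on the reference genes (-1.66, adjusted p = 0.0087). A second Cox6b2 probe, with a mean of 3.66 below the median probe, did not show the pattern. It was 2.98 to 4.19 in BrM and 2.94 to 4.27 in the controls (0.001, limma adjusted p = 0.999). Cox6b1 stood at 12.01 to 13.003 on all arrays with PyMT BrM and PyMT bone marrow among the highest.

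**Figure D3:**
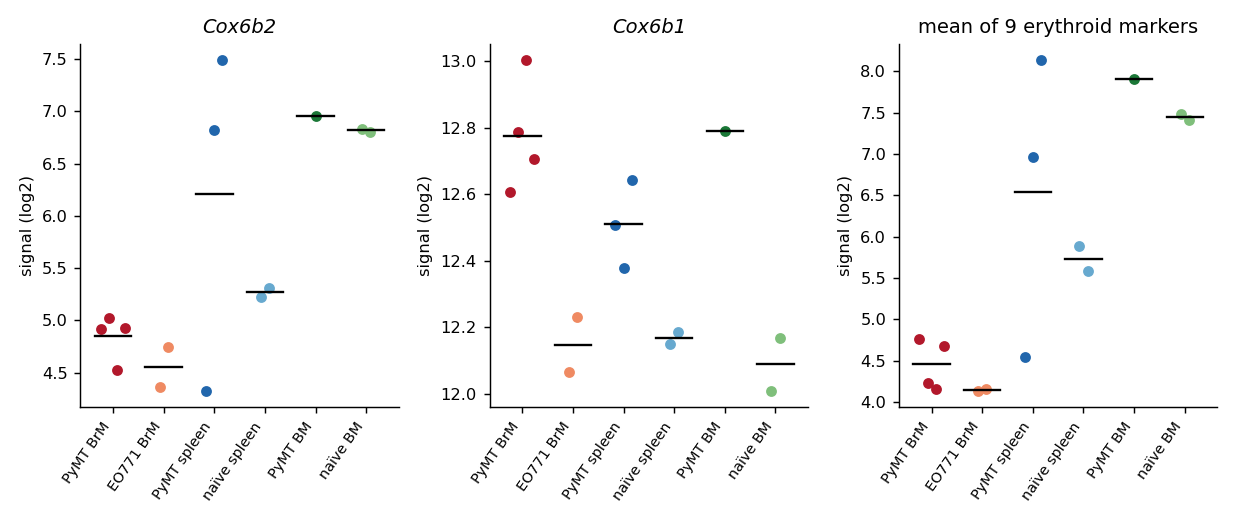
Log2 signal per array of Cox6b2 and Cox6b1 and the mean of 9 erythroid markers, by condition, with black lines at condition means. Cox6b2 and the erythroid mean are low in the 6 BrM arrays and in PyMT spleen 1 and high in bone marrow, with PyMT spleen 2 and 3 near bone marrow.

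The remaining tissue or condition isoforms were faint. Cox4i2, the form known from lung and low oxygen, ran from 3.44 to 4.49, Cox8b, a muscle form, from 2.01 to 4.33 and Cox8c, a testis form, from 1.64 to 3.71, each close to or below the median probe. Cox4i1, the common counterpart of Cox4i2, was 12.60 to 12.87 in PyMT BrM, 12.24 and 12.26 in EO771 BrM and 12.38 to 12.83 in the controls. Ndufa4, now counted as a subunit of complex IV although named for complex I, was 10.77 to 11.33 in PyMT BrM, 11.40 and 11.22 in EO771 BrM and 11.29 to 11.72 in the controls (pooled difference -0.42, adjusted p = 0.0915).

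In the PyMT model alone, BrM against spleen of tumor-bearing mice gave 4 members higher and 0 lower, with backgrounds of 2.72% and 2.02%, and the members had a median difference of 0.27. Cox6a2 was 6.61-fold higher (2.72, adjusted p = 0.00031), followed by Cox7a1 (2.29, adjusted p = 0.00013), Ndufa12 (1.07, adjusted p = 0.0059) and Ndufc1 (0.94, adjusted p = 0.0099). Without PyMT spleen 2 the counts were 5 higher and 1 lower, with Ndufa12 losing its call (adjusted p = 0.0112). Ndufa12 and Ndufc1 both lost theirs, leaving 2 higher, without any 1 of the PyMT BrM arrays, PyMT spleen 1, either EO771 BrM array or either naïve bone marrow array, and also with the naïve bone marrow arrays averaged. After centring on the reference genes the median over members was -0.02. In the other set, EO771 BrM against naïve spleen gave 1 higher, Cox7a1, and 0 lower, with backgrounds of 1.26% and 0.877%. Cox7a1 was 6.41-fold higher there (2.68, SE 0.31, adjusted p = 0.00056), and the members' median was -0.03.

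Whether the BrM-to-spleen difference itself differed between the sets was tested as an interaction. It called 0 members in either direction, with backgrounds of 0.011% and 0.0177%. At unadjusted p < 0.05 the members were 8 higher and 0 lower. The share higher was 7.69% of members between the median probe and 9 against 7.86% of such probes. Above 9 it was 9.43% against 9.62%. Cox6a2 had the largest value, 2.34 (adjusted p = 0.111), with differences of 2.72 in the PyMT set and 0.39 in the other. Cox7a2l, a factor of supercomplexes of complexes III and IV, was 11.01 to 11.37 in PyMT BrM and 10.47 to 10.97 in PyMT spleen, but 10.12 and 10.28 in EO771 BrM and 11.27 and 11.20 in naïve spleen. Its arrays thus moved up in one set and down in the other without overlap within either, and the test of that difference gave 1.49 (adjusted p = 0.097). For Cox7a1 the interaction was -0.39 (adjusted p = 0.757).

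Most respiratory chain genes gave a higher signal in PyMT BrM than in EO771 BrM, although few passed the threshold singly. PyMT BrM against EO771 BrM called 1 member higher, Ndufv3, and 0 lower, with backgrounds of 0.583% and 1%, yet 40 members were higher and 6 lower at unadjusted p < 0.05, against 10.9% and 9.57% of all probes. The median difference over members was 0.47 and over all probes 0.01. Centred on the reference genes these were 0.27 and -0.19. At unadjusted p < 0.05, 18 members were then higher, against 5.95% of all probes, and 15 lower. The share of all probes lower at that level was not computed under this centring, so the 15 have no background. Every PyMT BrM array lay above both EO771 BrM arrays for 52 members, against 18.8% of probes, and below both for 12, against 17.2%. With EO771 BrM 1 left out 19 members were higher at unadjusted p < 0.05, and with EO771 BrM 2 left out 24.

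The direction of the difference varied with signal strength. Of the 53 members with a mean above 9, 50 were higher in PyMT BrM, with a median of 0.61 against 0.11 for all probes in that range. At unadjusted p < 0.05, 38 (71.7%) were higher against 20.4% of such probes. The 3 on the other side were Atp5h, Cox6c and Ndufa4. For Ndufs4, which is among the 50, all other probes were lower in PyMT BrM (-0.87, -1.16 and -1.65, limma adjusted p = 0.151, 0.025 and 0.039). Its direction thus depended on the probe. Bright second probes of Cox6b1, Uqcr10 and Ndufa3 were higher, as their first probes were (0.80, 0.84 and 0.90). Of the 26 members between the median probe and 9, 11 were higher, with a median of -0.44 against 0.03 for all probes in the range. Of the 7 below the median probe 2 were higher, with a median of -0.14 against -0.02, so the difference did not rise steadily with signal. The mean of the 53 bright members was 11.32 to 11.49 in PyMT BrM and 10.79 to 10.85 in EO771 BrM, while PyMT spleen was 10.94 to 11.15, naïve spleen 10.80 to 10.93, PyMT bone marrow 11.10 and naïve bone marrow 10.81 to 10.84. In this mean PyMT BrM therefore stood above every other array. EO771 BrM 2 (10.85) lay among the naïve controls and EO771 BrM 1 (10.79) just below them. By complex, EO771 BrM lay below every control for complex III (10.91 and 10.96 against at least 11.02). The same held for complex IV (11.36 and 11.47 against at least 11.55), where PyMT BrM 3 (11.72) lay below naïve spleen 1 (11.73). For complex II EO771 BrM lay above every control (9.58 and 9.61 against at most 9.503). For complexes I and V it lay within the control range. The reference genes also ran higher in PyMT BrM (10.89 to 11.01) than in EO771 BrM (10.72 to 10.80). The proliferation gene mean was 7.24 to 7.85 against 6.22 to 6.34, and the mean of the carcinoma cell markers 4.82 to 5.52 against 4.17 to 4.22, with 2 of 17 and 3 of 11 genes higher and 0 lower. The neutrophil marker mean was 6.40 to 8.64 against 6.42 to 6.64, with 7 of 19 markers higher and 2 lower at unadjusted p < 0.05 and 0 called. The B cell marker mean was 4.92 to 5.35 against 4.51 to 4.76 and the brain cell marker mean 4.85 to 5.37 against 4.66 to 4.70, with 0 markers called in either list. The part of these lists in the values of the members was not tested.

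**Figure D4:**
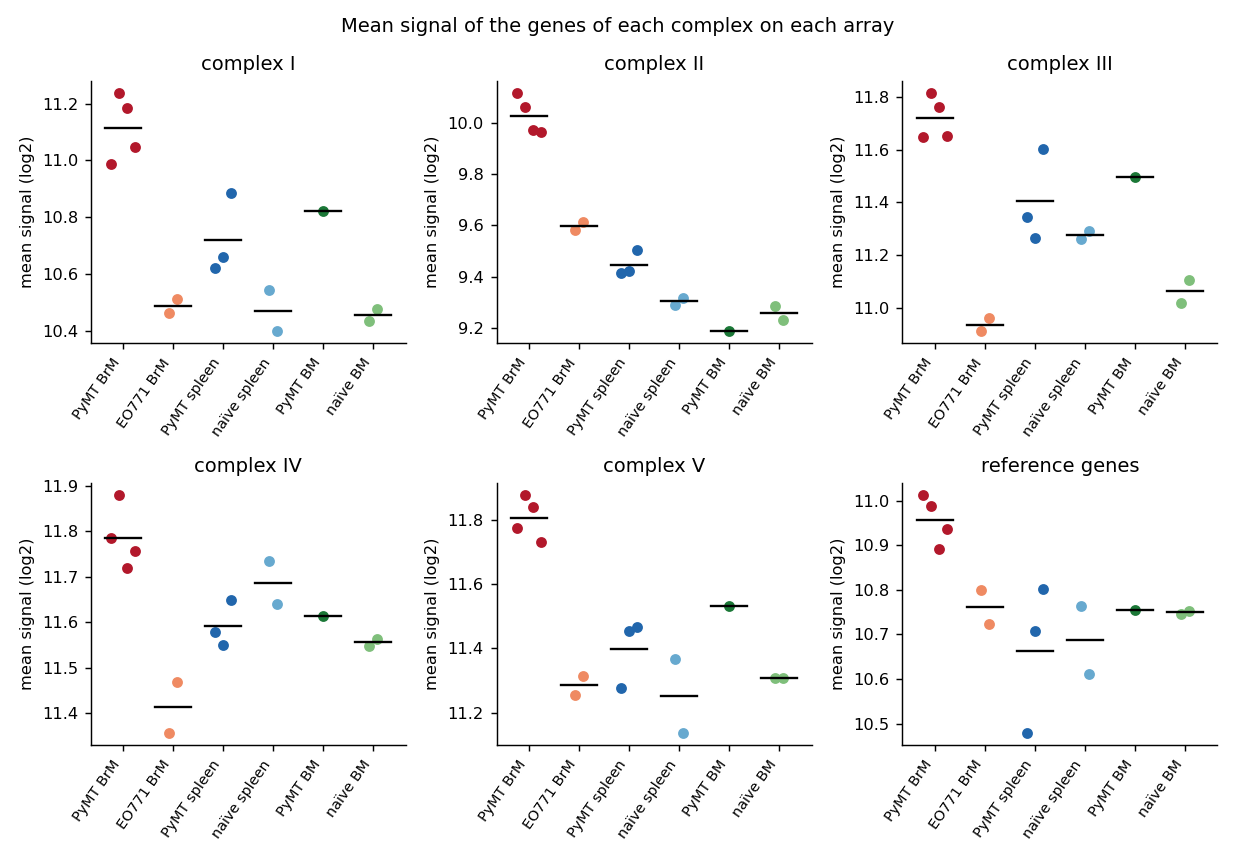
Mean log2 signal per array over the members with a mean above 9 of each complex and over the reference genes, by condition, with black lines at condition means. PyMT BrM is above EO771 BrM in every panel, by the largest step for complex III (11.65 to 11.82 against 10.91 to 10.96).

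By complex the median of PyMT over EO771 BrM was 0.43 for complex I (33 of 42 positive), -0.42 for complex II (2 of 4), 0.73 for complex III (6 of 7), 0.47 for complex IV (11 of 17) and 0.49 for complex V (11 of 16). Ndufv3, a small subunit of the NADH-binding arm of complex I, was 11.77, 11.95, 11.73 and 11.87 in PyMT BrM and 10.54 and 10.47 in EO771 BrM, 2.50-fold apart (1.32, SE 0.20, adjusted p = 0.0040). The controls split in the same way, with 11.44 to 11.72 in PyMT spleen against 10.79 and 10.83 in naïve spleen, though naïve bone marrow at 11.50 and 11.63 stood with the PyMT arrays. Another bright Ndufv3 probe differed by 0.97 (adjusted p = 0.027) and a fainter one by 0.16 (adjusted p = 0.835), and the call was lost without PyMT BrM 2 or 4 or either EO771 array (highest adjusted p = 0.0567). In complex III, Uqcrc1, a core subunit, was 10.61, 10.91, 10.95 and 10.56 in PyMT BrM against 9.80 and 9.87 in EO771 BrM (0.92, adjusted p = 0.0328). In complex V, Atp5c1, the gamma subunit of the rotor, was 12.15, 11.84, 11.94 and 12.27 against 11.11 and 11.32 (0.84, adjusted p = 0.058).

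Complex II split by subunit. Sdhc, a membrane anchor, was 10.34 to 10.65 in PyMT BrM and 9.83 and 9.79 in EO771 BrM. Sdhd, the other membrane anchor, ran the opposite way, at 4.83, 4.87, 4.43 and 5.17 in PyMT BrM and 6.64 and 6.65 in EO771 BrM (-1.82, adjusted p = 0.0121). Sdha, the flavoprotein, was faint throughout, at 1.99 to 3.30 in PyMT BrM and 3.55 and 3.83 in EO771 BrM (-1.07, adjusted p = 0.293).

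The Sdhd pattern was not limited to BrM. It was 4.16, 4.66 and 3.40 in PyMT spleen and 4.21 in PyMT bone marrow, against 6.63 and 5.92 in naïve spleen and 6.46 and 6.31 in naïve bone marrow, so that all 8 arrays of PyMT mice (3.40 to 5.17) lay below all 6 of EO771 and naïve mice (5.92 to 6.65). A contrast chosen after these values were seen averaged the difference between PyMT mice and EO771 or naïve mice within BrM, spleen and bone marrow, and what it separates is the set of mice, with tumor line and tumor status, which cannot be told apart. It called 3 members higher and 4 lower, with backgrounds of 1% and 2.56%, a median of 0.26 over members and 0.03 over all probes. The 4 lower were Sdhd (-2.06, SE 0.23, adjusted p = 0.00050) and the complex I accessory subunits Ndufb9 (-2.12, SE 0.30, adjusted p = 0.0015), Ndufb2 (-1.53, SE 0.19, adjusted p = 0.00088) and Ndufb10 (-0.92, SE 0.15, adjusted p = 0.0030). The 3 higher were Ndufv3 (0.86, adjusted p = 0.0028), Ndufa12 (0.85, adjusted p = 0.0061) and the faint testis isoform Cox7b2 (1.12, adjusted p = 0.0088), whose calls were lost in 4, 9 and 13 of the 14 fits that left out 1 array; with the naïve bone marrow arrays averaged 0 were higher.

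The subunits that were lower in PyMT mice kept apart array by array. Ndufb9 was 4.75 to 5.53 in PyMT BrM, 3.91, 5.44 and 3.52 in PyMT spleen and 4.2 in PyMT bone marrow, against 6.94 and 6.42 in EO771 BrM, 6.29 and 6.02 in naïve spleen and 7.02 and 7.07 in naïve bone marrow. Ndufb2 was 3.74 to 4.69 over the 8 arrays of PyMT mice and 5.37 to 6.08 over the other 6. Ndufb10 was 6.91 to 7.49 and 7.61 to 8.68. For none of the 4 did the sets overlap. The 4 had been called by the contrast between these sets on the same arrays. Their lack of overlap therefore describes the call and is not further support. In PyMT mice the lowest values of Ndufb2, Ndufb9 and Sdhd (3.74, 3.52 and 3.40) lay below the median probe of 3.99. The size of these 3 differences thus rests partly on faint signals. Every PyMT-mouse array lay below every other array for 6 members, these 4 with Cox6c and Cox7a2, against 2.27% of probes, and above for 7, Atp5j2, Cox6a1, Cox6b1, Ndufa10, Ndufa11, Ndufa2 and Uqcrc1, against 1.33%. A second, fainter probe of Ndufb10 and one of Ndufb2 differed between the BrM of the lines by -0.63 and -1.21 (adjusted p = 0.216 and 0.207), and Sdhd and Ndufb9 had 1 probe each. As between the BrM, members with a mean above 9 had a positive median (0.33, 49 of 53 positive) and those between the median probe and 9 a negative one (-0.43, 9 of 26 positive), against 0.05 and 0.03 for all probes in those ranges.

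**Figure D5:**
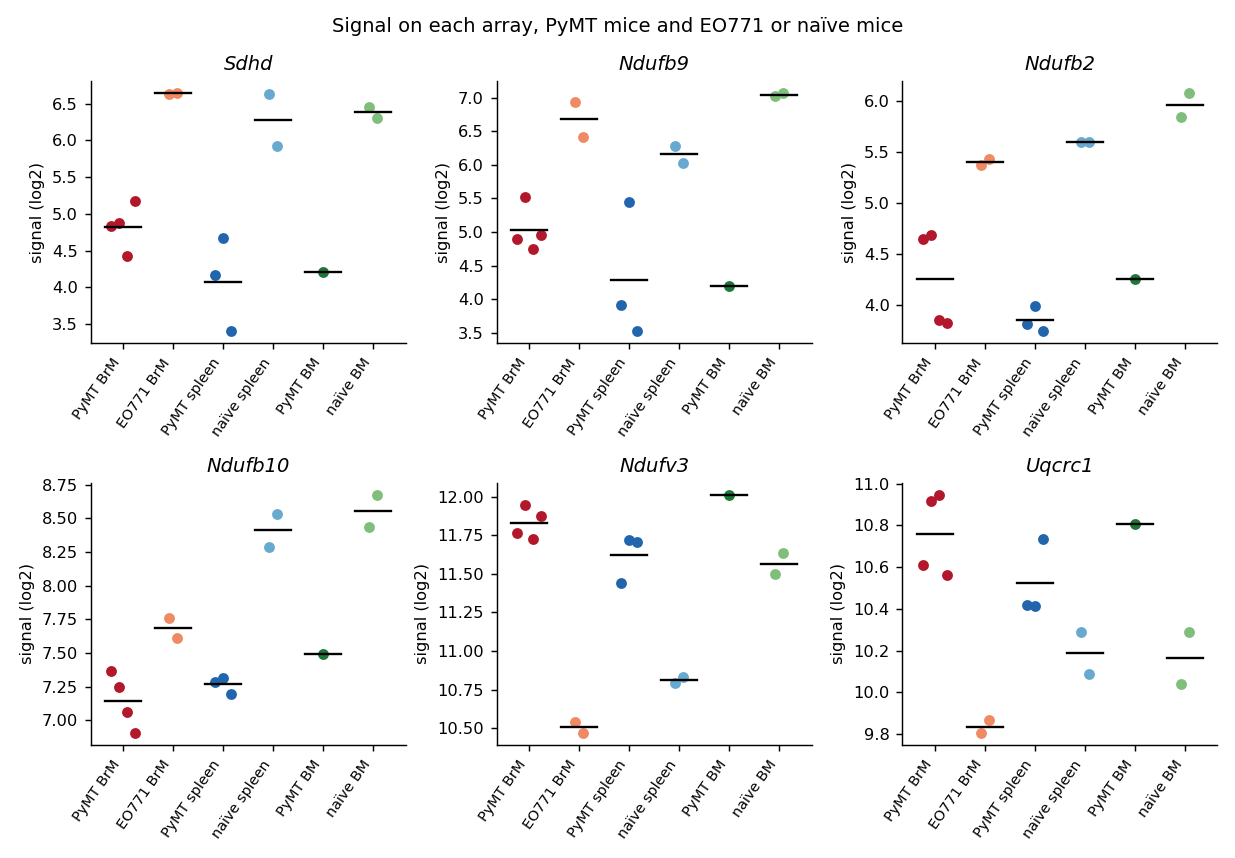
Log2 signal on each array of Sdhd, Ndufb9, Ndufb2, Ndufb10, Ndufv3 and Uqcrc1, by condition, with black lines at condition means. Arrays of PyMT mice lie below those of EO771 and naïve mice for the first 4 genes, and above them for Uqcrc1, while Ndufv3 in naïve bone marrow reaches the PyMT arrays.

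Between the spleens alone, PyMT against naïve mice, 0 members were called in either direction, with backgrounds of 0.0287% and 0.0861%. At unadjusted p < 0.05, 5 were higher and 13 lower. The share higher was 7.69% of members between the median probe and 9 against 10.8% of such probes, and 5.66% against 5.39% above 9. The share of all probes lower at that level was not computed. Sdhd (-2.20, adjusted p = 0.0149), Ndufb2 (-1.75, adjusted p = 0.0171), Ndufb9 (-1.86, adjusted p = 0.0590) and Ndufb10 (-1.14, adjusted p = 0.028) missed the threshold, and 2 members were lower without PyMT spleen 2. The EO771 and naïve arrays enter several of these comparisons, which are therefore not separate evidence.

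Genes that work with the chain but lie outside the naming rule showed a few calls in BrM against the controls, where 3.8% of all probes were higher and 3.12% lower. Cycs, the cytochrome c that carries electrons from complex III to complex IV, was higher (1.00, adjusted p = 0.00096), the single call among 11 genes of cytochrome c, complex III and coenzyme Q synthesis. Of 32 other assembly factors 4 were higher and 0 lower, namely the complex II factor Sdhaf3 (1.29, adjusted p = 0.00068), the complex III factor Uqcc2 (1.27, adjusted p = 0.0028), the inner membrane insertase Oxa1l (0.85, adjusted p = 0.0068) and Cox10 of haem synthesis (0.76, adjusted p = 0.0095). Of 13 tricarboxylic acid cycle genes 1 was higher, Idh3b (0.85, adjusted p = 0.0074), and among 15 regulators 1 was higher, Hif1a, the oxygen-responsive factor (2.34, 5.06-fold, adjusted p = 0.00018). Ppargc1a, a coactivator of mitochondrial biogenesis, gave -0.16 (adjusted p = 0.769). Pyruvate entry (11 genes), carriers and channels (7) and supercomplex and hypoxia factors (10) gave 0 calls in either direction, with medians of 0.46, 0.51 and 0.09, and of 9 antioxidant genes 1 was lower, the transhydrogenase Nnt (-1.03, adjusted p = 0.00091), and 0 higher. With arrays centred on the reference genes Cycs, Sdhaf3, Hif1a and Nnt stayed called, Uqcc2, Oxa1l, Cox10 and Idh3b did not (adjusted p = 0.0114, 0.0315, 0.0594 and 0.0307), and Dlst (-0.82), Nrf1 (-0.97) and Bnip3l (-1.06) were then called lower. Between PyMT and EO771 BrM, with backgrounds of 0.583% and 1%, the calls were Coq9 of coenzyme Q synthesis (1.48, adjusted p = 0.0039) and Fh1, fumarase (1.39, adjusted p = 0.0068), both higher in PyMT BrM. After that centring Coq9 stayed called, Fh1 did not (adjusted p = 0.0224) and Coq2 was called lower (-2.02, adjusted p = 0.0096).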

How the data were processed

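RNA of GFP+CD11b+ cells was amplified and hybridised by the authors to MouseWG-6 v2 bead arrays, and GenomeStudio 2011.1 is named in the submitters' processing notes. The deposited table holds log2 signals of 45281 probes on 14 arrays, which the authors background-corrected and quantile normalized with limma (version and background method not given in the sources used here); base 2 was inferred from how far the values reach, -1.68 to 14.58. On each array 80 values lay below 0, and the sorted values of the arrays differed by at most 0.0019. Bead-level depth is unknown, so that precision is set by how many arrays each group had. Of the probes 34885 carried 1 gene symbol, 18 several and 10378 none. Symbols were taken from the platform annotation, and all 86 members were found in the RefSeq gene table; 51 had 1 probe and 35 several.

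The members, gene lists and tests were chosen with earlier results of these data known. Groups came from the labels. All probes were fitted in R 4.3.3 with limma 3.58.1 (lmFit and eBayes, two-sided), once with BrM against other arrays and once with the 6 conditions and contrasts between them, with p-values adjusted by Benjamini-Hochberg across the 45281 probes and a threshold of 0.01. The contrast of PyMT mice with EO771 and naïve mice within tissues, and the striated muscle and adipose marker lists, were added after values had been seen. Members were named by rule: up to 10 rises and 10 falls called in the pooled comparison, up to 3 of each called in other comparisons, the complex II subunits, the isoform pairs of complex IV, and the 3 members with the widest range of condition means. Others outside the rule, such as Ndufab1, Atp5c1 and Uqcrc1, the members listed as not overlapping, and further calls, were chosen after their values were seen. Alternatives were another threshold, all probes of a gene averaged, cyclic loess, centring on reference genes, dim probes left out, trended and robust eBayes, blocks by replicate number, code and set of mice, each set of mice alone, subunits without assembly factors, the methods' t-test and each array left out. The fits were tested on simulated data.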

Additional observations from a re-analysis of the deposited data

How the results depend on the processing

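Among the genes followed singly, no call reversed its direction under any alternative. Counts were scored only as kept or moved, so none could be scored as reversed. Medians over the members changed sign under centring and within EO771 and naïve mice, as given next. Those of spleen against bone marrow (0.014) and EO771 BrM against naïve spleen (-0.031) did so under several alternatives. The counts that follow are members called higher or lower, and a comparison that is not named moved by less than 1.5 times. Of these settings, only the centring had its calls over all probes counted. The other counts show how the calls moved, and not whether members moved more than other probes. At adjusted p < 0.05 the counts were 10 higher and 1 lower for pooled BrM, 30 for the F test, 8 higher for BrM against spleen, 10 higher and 4 lower for BrM against bone marrow, 11 higher for PyMT BrM against its spleen, 1 lower for EO771 BrM against naïve spleen, 11 higher and 2 lower for PyMT against EO771 BrM, 4 lower for PyMT against naïve spleen, and 16 higher and 11 lower for PyMT mice against EO771 and naïve mice. With probes of a gene averaged, PyMT against EO771 BrM gave 0 higher.

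Centring on the reference genes gave 2 higher and 1 lower (median -0.033) for pooled BrM, 2 higher (median -0.073) for BrM against spleen, 3 higher and 2 lower (median -0.015) for BrM against bone marrow, 2 higher (median -0.022) for PyMT BrM against its spleen, and 1 higher for PyMT mice. For PyMT against EO771 BrM it gave 1 lower, a median of 0.27 and, at unadjusted p < 0.05, 18 higher and 15 lower. The median of the difference between models was 0.16 then and 0.25 under cyclic loess, against 0.38. Over all probes this centring changed the pooled split from 1719 higher and 1413 lower to 1061 and 2009. Centred calls over all probes were 1110 higher and 1839 lower for BrM against spleen and 1409 and 1817 for BrM against bone marrow. For PyMT BrM against its spleen they were 645 and 1484. For PyMT against EO771 BrM they were 148 and 719, and for PyMT mice 244 and 1247.

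With dim probes left out the counts were 25 for the F test, 8 higher for BrM against spleen, 10 higher and 3 lower for BrM against bone marrow, 10 higher for PyMT BrM against its spleen, 6 higher and 1 lower for PyMT against EO771 BrM, 3 lower for PyMT against naïve spleen and 8 in each direction for PyMT mice. With trended and robust eBayes they were 31 for the F test, 8 higher for BrM against spleen, 3 lower for BrM against bone marrow, 10 higher for PyMT BrM against its spleen, 1 lower for EO771 BrM against naïve spleen, 11 higher and 1 lower for PyMT against EO771 BrM, 2 lower for PyMT against naïve spleen and 12 higher for PyMT mice. With the naïve bone marrow arrays averaged they were 6 for the F test, 1 higher and 0 lower for BrM against bone marrow, 2 higher for PyMT BrM against its spleen and 0 higher for PyMT mice.

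A replicate block by the number in the titles gave 2 higher for pooled BrM, 3 for the F test, 2 higher and 0 lower for BrM against bone marrow, 2 higher for PyMT BrM against its spleen, 0 higher for PyMT against EO771 BrM, and 0 higher and 2 lower for PyMT mice. Deviations of arrays with the same number were uncorrelated, so the numbers were not taken to pair arrays, and a replicate block by the code in brackets moved no count. Within EO771 and naïve mice the pooled count was 1 higher (median -0.045), and within PyMT mice 2 higher.

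With each array left out in turn the counts ran from 3 to 7 higher and 0 to 1 lower for pooled BrM (median 0.12 to 0.23), 5 to 21 for the F test, 1 to 6 higher and 0 to 1 lower for BrM against spleen, 1 to 8 and 0 to 2 for BrM against bone marrow, 0 to 2 in each direction for spleen against bone marrow, 2 to 5 and 0 to 1 for PyMT BrM against its spleen, 0 to 2 in each direction for PyMT against EO771 BrM (19 to 42 higher and 3 to 10 lower at unadjusted p < 0.05), 0 to 2 lower for PyMT against naïve spleen, and 0 to 3 higher and 3 to 7 lower for PyMT mice. The pooled count fell to 3 without PyMT BrM 1, 2 or 3. The methods' t-test gave 6 higher and 0 lower after Benjamini-Hochberg adjustment. It gave 25 and 4 at unadjusted p < 0.05, for which no share of all probes was computed. Single arrays or pairs in 4 of the 6 conditions, relative signals and faint probes near the median limit what these data resolve.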
